A study of Mus musculus with 24 samples.

Results

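Laminins are cross-shaped proteins of an α, a β and a γ chain that polymerise into a sheet under epithelium, around vessels and around muscle and nerve, and nidogen links that sheet to the type IV collagen network of the basement membrane. The 9 genes described here are the α chain genes Lama1, Lama2, Lama3, Lama4 and Lama5, the β chain gene Lamb3, the γ chain genes Lamc1 and Lamc3, and the nidogen gene Nid1. They were taken by symbol from the probe annotation, and all 9 of 9 were measured, with 1 probe set each, among 13499 genes read in all. In lung, the chain α3 joins β3 and γ2 under epithelium that adheres through integrin α6β4, the α5 chain is carried by alveolar and airway epithelium and by vessels, the α4 chain is typical of endothelium, the α2 chain is typical of muscle, nerve and stroma, and the α1 chain belongs mainly to the developing lung.

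Total RNA of the right lung lobe was profiled on 24 whole-transcript arrays, 1 mouse each, in 6 inbred strains. Transgenic mice (TG, 17 in all) bore a TGF-β1 transgene, the ligand that makes fibroblasts lay down matrix, and the other 7 mice were wild type (WT). The strains are called 129 (S129 in the labels, 129Si/J in the series design), A/J, AKR/J, BALB/cJ (BC in the labels), C3H and C57BL/6J. C57BL/6J was represented by 2 TG and 2 WT mice, and every other strain by 3 TG animals and a single WT animal. All mice, WT included, drank doxycycline for 2 weeks to switch the transgene on. Age, sex, the promoter of the transgene and the breeding of the WT mice were not given in the labels. The series asks which genes modify fibrosis under TGF-β1, and its design lists C57BL/6J, A/J and AKR/J as prone to fibrosis and C3H, 129 and BALB/cJ as resistant. The fibrosis code attached to each sample reverses those sets, and under that code every prone minus resistant difference would change sign. AKR/J and BALB/cJ were labelled emphysematous, 129 and C3H were not, and A/J and C57BL/6J had no such label.

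Array medians of the log2 values lay between 7.759 and 7.835, and across genes r was 0.9916 to 0.9972 within the 17 pairs that share a group. H2-Ea, an MHC class II gene known to be silent in mice of the b haplotype, was at 6.90 or less in the mice of 129 and C57BL/6J and at 12.21 or more in every mouse of the remaining strains. TGF-β1 itself was not analysed here, so the transgene was not checked in each mouse. In whole lung a lower value can mean fewer cells of a type or less RNA per cell, and these cannot be told apart. The level of 1 probe set is not set against that of another here, only the same probe set between mice.

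The 250 bases upstream of the first listed start are printed for Lamb3, an epithelial member, and Lama2, a stromal member. Each of these genes rose in TG lungs. The bases run 5′ to 3′ on the gene's strand, from RefSeq's GRCm38.p6. Lamb3 lies on the plus strand at chr1:193301744-193301993, and Lama2 on the minus strand at chr10:27616943-27617192. Capitals mark the short SMAD element, CAGAC on either strand.
Lamb3: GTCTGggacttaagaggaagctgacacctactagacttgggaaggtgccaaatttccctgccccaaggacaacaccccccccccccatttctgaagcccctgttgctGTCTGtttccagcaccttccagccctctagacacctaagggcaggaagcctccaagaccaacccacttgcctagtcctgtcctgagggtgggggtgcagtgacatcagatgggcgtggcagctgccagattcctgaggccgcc
Lama2: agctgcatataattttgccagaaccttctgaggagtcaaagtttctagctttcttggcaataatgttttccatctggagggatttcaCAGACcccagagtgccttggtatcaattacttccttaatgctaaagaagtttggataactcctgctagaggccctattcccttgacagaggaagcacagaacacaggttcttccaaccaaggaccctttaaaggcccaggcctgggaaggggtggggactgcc
Promoter windows were searched for 4 of the 9 genes, and any start of a member on 1 of the chromosomes was left out beforehand. Shares over all windows include that chromosome. The SMAD element was found 2 times in the Lamb3 window, beginning 250 and 143 bases before the start, 1 time in Lama2, 1 time in Lama5 and 0 times in Nid1, and it occurs in 42.2% of the 32851 windows of this length. The AP-1 element (TGACTCA or TGAGTCA, both strands) was in 0 of these 4 windows and in 4.46% of all windows. A match of these letters is a description of the window and not a binding site.

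The transgene's effect was asked first in all 24 mice, in a fit that gives each strain its own level. All 9 genes passed the test: 8 rose in TG lungs and 1, Lama4, fell. Lamb3 rose most, 2.18-fold, followed by Lama1 (1.80-fold), Lama3 (1.66-fold) and Lama2 (1.46-fold), while Lamc3, Nid1, Lama5 and Lamc1 rose by 1.25-fold to 1.32-fold and Lama4 fell by 0.19 ± 0.04 on the log2 scale. The same test called 26.7% of all genes, 13.2% higher and 13.5% lower. The median change over the 9 genes was 0.40, against -0.0006 over all genes tested. These genes were picked with results of these mice known, so the counts describe them and are not independent evidence of a direction. Each gene had the same sign in 6 of 6 strains, which 18% of all genes had together with a call.

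**Figure D1:**
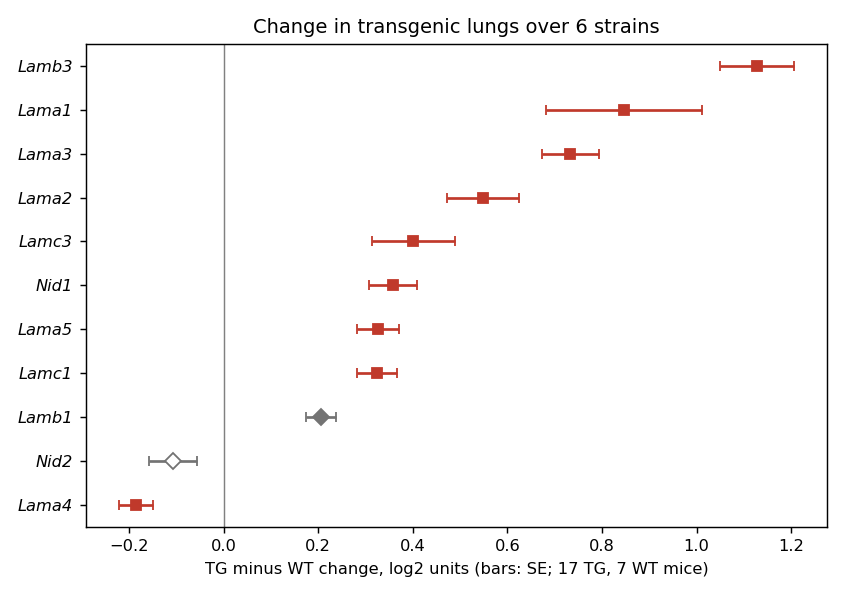
TG minus WT change in log2 units (x axis) for the 9 laminin and nidogen genes (squares) and for Lamb1 and Nid2 (diamonds), with bars for the SE, from 17 TG and 7 WT mice; an open marker did not pass the limma test. Lamb3 lies farthest right at 1.13, and Lama4 lies left of 0 at -0.19.

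The chains of the epithelial laminin, α3 and β3, rose in every strain. Lamb3 was at 9.76 in the WT mouse of 129 and at 10.86, 10.86 and 11.30 in its TG mice, at 9.87 in WT A/J and 10.998, 11.24 and 10.80 in TG A/J, and at 9.48 in WT AKR/J and 10.82, 10.95 and 10.67 in TG AKR/J. In BALB/cJ it was at 9.59 in the WT mouse and 10.52, 10.36 and 10.90 in the TG mice, in C3H at 10.24 and 11.003, 11.21 and 10.99, and in C57BL/6J at 10.06 and 10.07 in WT against 11.25 in both TG mice. All 17 TG mice lay above the highest WT mouse, the one of C3H. The change was 1.13 ± 0.08 (17 TG and 7 WT mice, limma adjusted p = 2e-09).

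The groups of Lama3, the partner α chain, did not overlap either. Its WT values ran from 10.61 in BALB/cJ over a median of 10.82 to 11.26 in C3H, and its TG values from 11.31 over a median of 11.62 to 11.85. All 17 TG mice again lay above the highest WT mouse, which was again the mouse of C3H. Lama3 changed by 0.73 ± 0.06 (limma adjusted p = 1.6e-08). Complete separation with TG higher was found for 1.02% of all genes. The γ2 chain gene of this laminin was not analysed here.

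Markers of epithelium moved with these chains. Of 6 epithelial markers 5 were measured and 4 rose, among them Epcam (0.70 ± 0.06) and the keratin gene Krt8 (0.71 ± 0.07), and the mean log2 level of the list ran from 10.43 to 11.30 in TG and from 10.11 to 10.58 in WT mice. Of 7 markers of the transitional state between alveolar type 2 and type 1 cells, 4 were measured and 3 rose, with Itgb6, whose integrin releases TGF-β from its latent complex, at 1.48 ± 0.11, Sfn at 1.14 ± 0.14 and Krt8, which both lists hold, and a list level of 10.62 to 11.61 in TG against 9.85 to 10.49 in WT mice. Alveolar type 1 markers (6 of 8 measured) and type 2 markers (6 of 7 measured) had 0 called genes, and basal cell markers (5 of 5 measured) had 0 higher and 1 lower, Krt15. The limma p before adjustment was below 0.05 for 2 of the type 1 markers, Clic5 and Rtkn2, and for 0 of the type 2 markers, and the median changes of these lists were -0.08 and 0.002. The part of epithelial RNA share in the Lamb3 and Lama3 changes was not tested.

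Lama5 and Lamc1, chains of the common laminin of epithelium and vessels, rose by a smaller amount. Lama5 ran from 9.84 over a median of 10.19 to 10.25 in WT mice and from 10.12 over a median of 10.42 to 10.70 in TG mice, and 15 of 17 TG mice lay above every WT mouse. The groups overlapped only through TG mice of C3H, a strain whose WT mouse was the lowest of all at 9.84. Lama5 changed by 0.33 ± 0.04 (limma adjusted p = 1e-05). Lamc1, the γ chain of most laminins, ran from 10.87 to 11.07 in WT mice (median 11.02) and from 10.97 to 11.46 in TG mice (median 11.30). Its TG mice lay above every WT mouse in 16 of 17 cases, the exception being mouse 3 of BALB/cJ at 10.97, just under its WT mouse at 10.99. Lamc1 changed by 0.32 ± 0.04 (limma adjusted p = 7.3e-06).

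Lama2 and Lama4, the α chains of stroma and vessels, went opposite ways. Lama2, whose loss causes a congenital muscular dystrophy, was at 9.97 in WT AKR/J, 10.08 and 10.30 in WT C57BL/6J, 10.15 in WT BALB/cJ, 10.33 in WT 129, 10.38 in WT C3H and 10.41 in WT A/J. Its TG values ran from 10.48 in BALB/cJ over a median of 10.68 to 11.15 in A/J. The groups did not overlap, and the change was 0.55 ± 0.08 (limma adjusted p = 1.3e-05).

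Lama4 was the only one of the 9 that fell. Its WT values were 10.59 in 129, 10.47 in A/J, 10.25 in AKR/J, 10.32 in BALB/cJ, 10.40 in C3H and 10.59 and 10.58 in C57BL/6J. In TG mice it ran from 10.05 in BALB/cJ over a median of 10.22 to 10.45 in 129, and 12 of 17 lay below the lowest WT mouse. Within each of the 6 strains every TG mouse lay below every WT mouse. Most strains had a single WT mouse, and the share of all genes with such a separation was not counted. In AKR/J the gap was small, 10.255 in the WT mouse against 10.247 in the highest TG mouse. The change was -0.19 ± 0.04 (limma adjusted p = 4e-04).

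Endothelial markers fell beside Lama4. Of 9 such markers 7 were measured and 6 fell, among them the angiopoietin receptor gene Tek (-0.60 ± 0.06), Ramp2 (-0.49 ± 0.05), Eng (-0.46 ± 0.05) and Pecam1 (-0.22 ± 0.04), and Emcn (-0.03 ± 0.06) did not pass. The mean log2 level of the endothelial list ran from 12.02 to 12.30 in WT and from 11.53 to 12.05 in TG mice. Smooth muscle markers (3 of 6 measured) fell in 3 cases, from 11.16 to 11.48 in WT to 10.72 to 11.32 in TG mice, and heart muscle markers (5 of 6 measured) fell in 4. The part of these cell types in the change of Lama4 was not tested.

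Stromal lists gave mixed counts beside Lama2. Of 7 fibroblast markers 6 were measured; Col1a1 (1.02 ± 0.08), Col3a1 (0.97 ± 0.06) and Lum (0.45 ± 0.10) rose, Dcn (-0.20 ± 0.06) and Tcf21 (-0.68 ± 0.09) fell, and the list level ran from 10.73 to 11.14 in TG and from 10.44 to 10.83 in WT mice. Pericyte markers (4 of 5 measured) had 1 higher, Rgs5, and 1 lower, Notch3. Schwann cell markers (3 of 5 measured) had 1 higher, S100b, with Sox10 not passing at 0.10 ± 0.05. Mesothelial markers (4 of 5 measured) had 1 higher and 1 lower, adipocyte markers (2 of 5 measured) 2 lower, and the single measured skeletal muscle marker of 5, Myh4, did not pass. The smooth muscle and heart muscle lists, given above beside Lama4, had median changes of -0.39 and -0.87, while Lama2 rose. The part of all these cell types in the Lama2 change was not tested.

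Lama1, the α chain of embryonic basement membranes, rose strongly in some strains and little in others. In C57BL/6J it was at 7.85 and 7.35 in WT and at 9.72 and 9.18 in TG mice, and in A/J at 7.26 in the WT mouse and 8.85, 8.55 and 9.08 in TG mice. In C3H it was at 7.32 in WT and 7.73, 7.81 and 7.84 in TG mice, in 129 at 7.11 and 7.64, 7.46 and 7.44, in BALB/cJ at 7.04 and 7.34, 7.38 and 7.36, and in AKR/J at 7.25 and 7.38, 7.37 and 7.38. The TG mice of A/J and C57BL/6J thus stood apart, the 5 of them being the ones above the highest WT mouse, while the TG mice of the other 4 strains, at 7.34 to 7.84, did not pass the highest WT mouse at 7.85. Over all strains the change was 0.85 ± 0.16 (limma adjusted p = 0.00052), with the widest SE of the 9 genes.

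Lamc3, the γ3 chain described outside the usual epithelial membrane, and Nid1, the laminin-collagen linker, also rose. Lamc3 ran from 8.001 in a C57BL/6J mouse over a median of 8.39 to 8.58 in C3H among WT mice, and from 8.36 over a median of 8.68 to 9.13 among TG mice. It changed by 0.40 ± 0.09 (limma adjusted p = 0.0015), with 15 of 17 TG mice above the highest WT mouse. Nid1 ran from 10.98 in 129 over a median of 11.35 to 11.51 in A/J among WT mice, and from 11.33 over a median of 11.55 to 11.97 among TG mice. It changed by 0.36 ± 0.05 (limma adjusted p = 2.2e-05). Only 10 of 17 TG mice lay above the highest WT mouse, the one of A/J. Within each strain all TG mice lay above the WT mice. Most strains had a single WT mouse, and the share of all genes with this pattern was not counted.

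**Figure D2:**
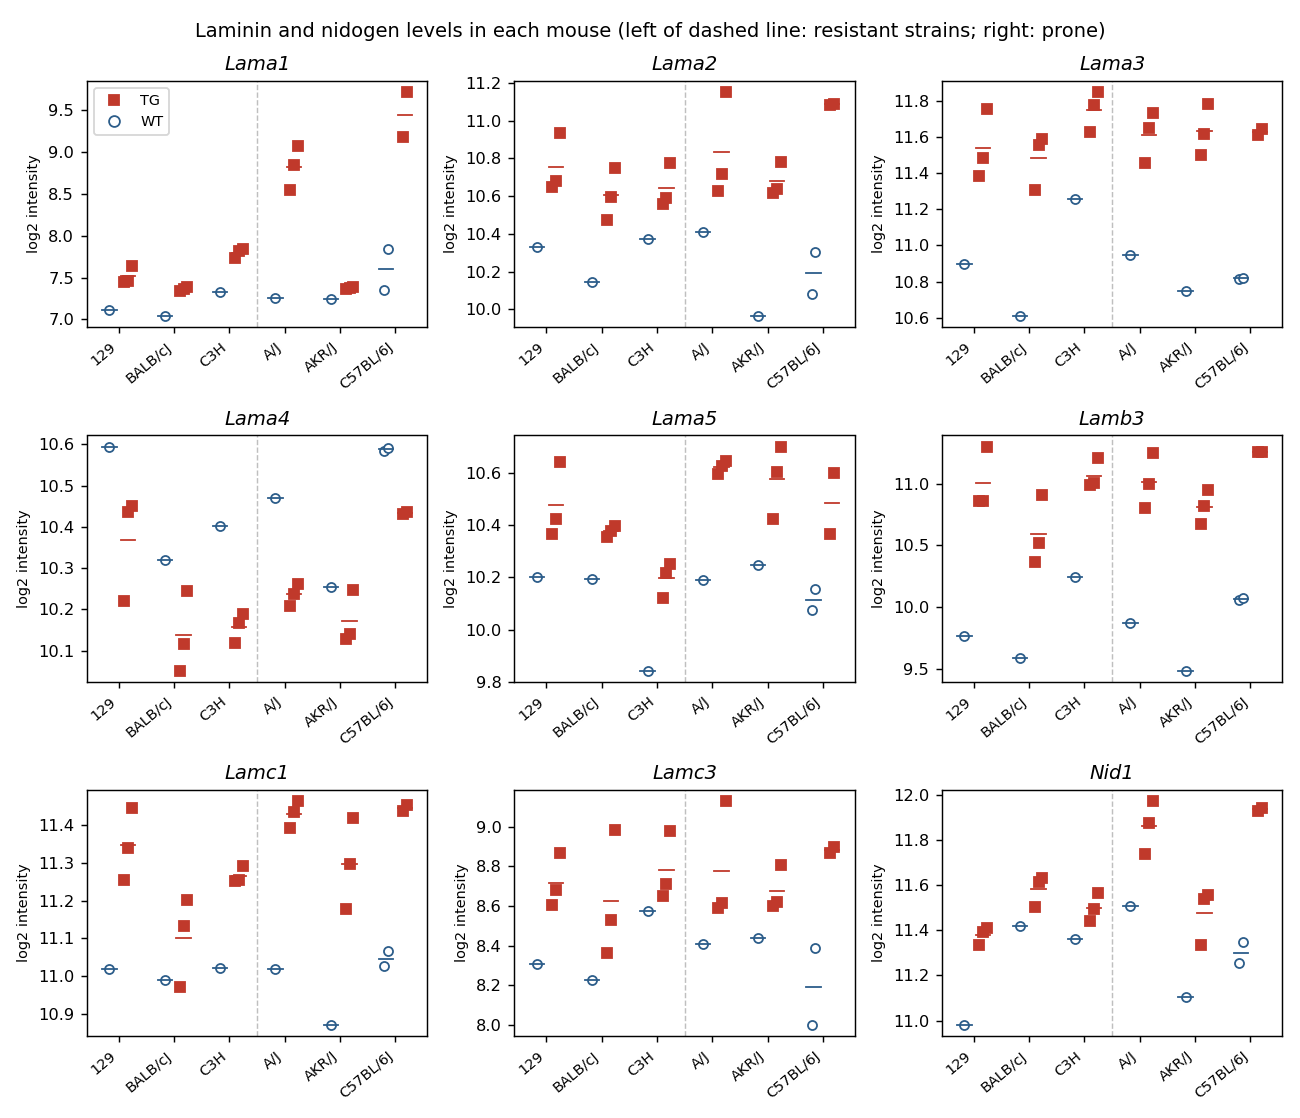
Log2 intensity (y axis, own scale per gene) of each mouse by strain for the 9 genes; filled squares are TG mice, open circles WT mice, short lines group means, and the dashed line parts resistant from prone strains. Lama1 is high in the TG mice of A/J (8.55 to 9.08) and C57BL/6J (9.18 to 9.72), and Lama4 is the gene whose TG mice lie under the WT mice.

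Other laminin and basement membrane genes were counted from lists. Lamb1, the β chain that partners most α chains, rose by 0.21 ± 0.03 (limma adjusted p = 4.4e-05), and Nid2, the second nidogen, was at -0.11 ± 0.05 and did not pass (limma adjusted p = 0.14). Of 12 basement membrane collagens and proteoglycans 7 were measured and 6 rose: the type IV collagen chains Col4a3 (0.33 ± 0.06) and Col4a4 (0.20 ± 0.05), the linking collagens Col15a1 (0.39 ± 0.09) and Col18a1 (0.22 ± 0.06), perlecan Hspg2 (0.14 ± 0.05) and agrin Agrn (0.40 ± 0.04). Col17a1, of the hemidesmosome, was at -0.06 ± 0.03. The median of this list was 0.22.

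Proteins bound to the membrane were split. Of 20 genes 18 were measured, 6 rose and 3 fell, with a median of 0.06. The elastic fibre protein gene Fbln5 (0.67 ± 0.06), Smoc2 (0.55 ± 0.06), Fbln1 (0.49 ± 0.09) and Sparc (0.48 ± 0.03), a collagen-binding matricellular protein, led the rise, and Efemp1 (-0.40 ± 0.08), Tinagl1 (-0.21 ± 0.05) and the peroxidasin gene Pxdn (-0.17 ± 0.04), which crosslinks type IV collagen, fell.

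Laminin receptors and their partners rose in 5 and fell in 2 of 11 measured genes of 15, with a median of 0.01. Itga7, the α7 integrin that binds laminin on muscle, rose most (0.95 ± 0.08), then the syndecan Sdc1 (0.67 ± 0.06), Itga3 (0.18 ± 0.05), whose integrin binds laminins of the α3 and α5 chains, and Plec (0.18 ± 0.04). The integrin chains that hold the epithelial laminin in hemidesmosomes did not pass, with Itga6 at 0.01 ± 0.07 and Itgb4 at -0.03 ± 0.05. Itga1 (-0.23 ± 0.05) and Dst (-0.17 ± 0.03) fell. Of 8 proteases that cut laminin or the membrane 4 were measured, and Mmp14 (1.00 ± 0.09) and Bmp1 (0.60 ± 0.08), which processes the γ2 chain, rose.

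**Figure D3:**
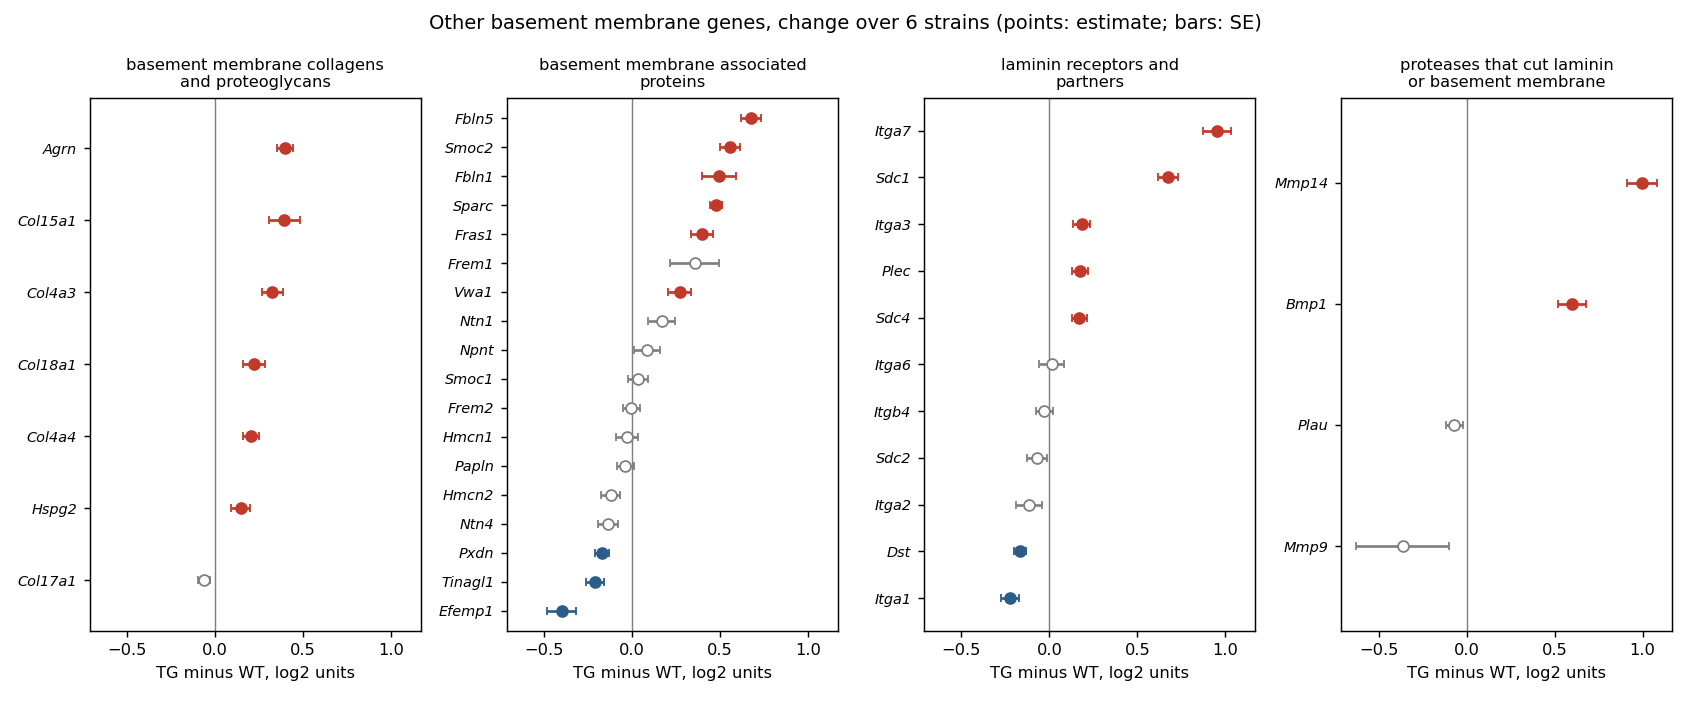
TG minus WT change in log2 units (x axis) with SE bars for the measured genes of 4 lists; red filled points rose, blue filled points fell and open grey points did not pass the limma test. Of the collagens and proteoglycans 6 of 7 lie to the right of 0, and among the receptors Itga7 lies farthest right at 0.95.

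Within single strains, each tested against its own WT mice, 23 of 54 gene and strain pairs passed, all of them higher. The counts were 8 of 9 genes in C57BL/6J, 6 in A/J, 4 in AKR/J, 3 in 129, 2 in BALB/cJ and 0 in C3H, where the test called 6.96%, 6.8%, 1.54%, 1.56%, 0.993% and 0.489% of all genes higher. In C3H 6 of the 9 genes had an unadjusted p below 0.05, among them Lamb3 at 0.83 ± 0.20 (limma adjusted p = 0.070). The share of all genes below that unadjusted limit in C3H was not counted. C57BL/6J is the strain with 2 WT mice, and for the single WT mouse of the other 5 strains the spread was borrowed from the groups with more mice.

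Lamb3 and Lama3 each passed in 5 of 6 strains. In all, 4 of the 9 genes passed in 3 or more strains, against 2.93% of all genes. Lamb3 changed by 0.83 in C3H to 1.33 ± 0.20 in AKR/J, and Lama3 by 0.49 ± 0.15 in C3H to 0.88 ± 0.15 in AKR/J, the WT mouse of C3H being the highest WT mouse for both genes. Nid1 passed in 129, A/J and C57BL/6J, and Lamc1 in A/J, AKR/J and C57BL/6J. Lama4 lay between -0.24 ± 0.09 in C3H and -0.08 ± 0.09 in AKR/J and passed limma in 0 of 6 strains, with p before adjustment below 0.05 in 3. Several of these calls were lost when 1 mouse was left out. Lama3 in 129 had limma adjusted p = 0.065 without TG mouse 3 of 129. In C57BL/6J the Lamc3 change was 0.50 without WT mouse 2 (limma adjusted p = 0.24), and its call was also lost without either TG mouse (0.12 and 0.094). Lama5 in C57BL/6J was at 0.25 without TG mouse 1 (limma adjusted p = 0.23) and lost its call without either WT mouse (0.053 and 0.14). In AKR/J, Lama2 lost its call without any of the 3 TG mice (limma adjusted p = 0.052 to 0.093) and Lamc1 without TG mouse 1 or 2 (0.071 and 0.088). Nid1 in A/J lost its call without TG mouse 1 or 3 (limma adjusted p = 0.055 and 0.058), and Nid1 in 129 lost it in 12 of 19 such refits, including those without each TG mouse of 129 (0.050 to 0.093 over the 12). In C3H, Lamb3 passed without TG mouse 3 of 129, of A/J or of BALB/cJ (limma adjusted p = 0.041, 0.050 and 0.038). With the replicate number as a block, Nid1 in 129 and A/J and Lama2 and Lamc1 in AKR/J did not pass (limma adjusted p = 0.082, 0.054, 0.059 and 0.060).

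**Figure D4:**
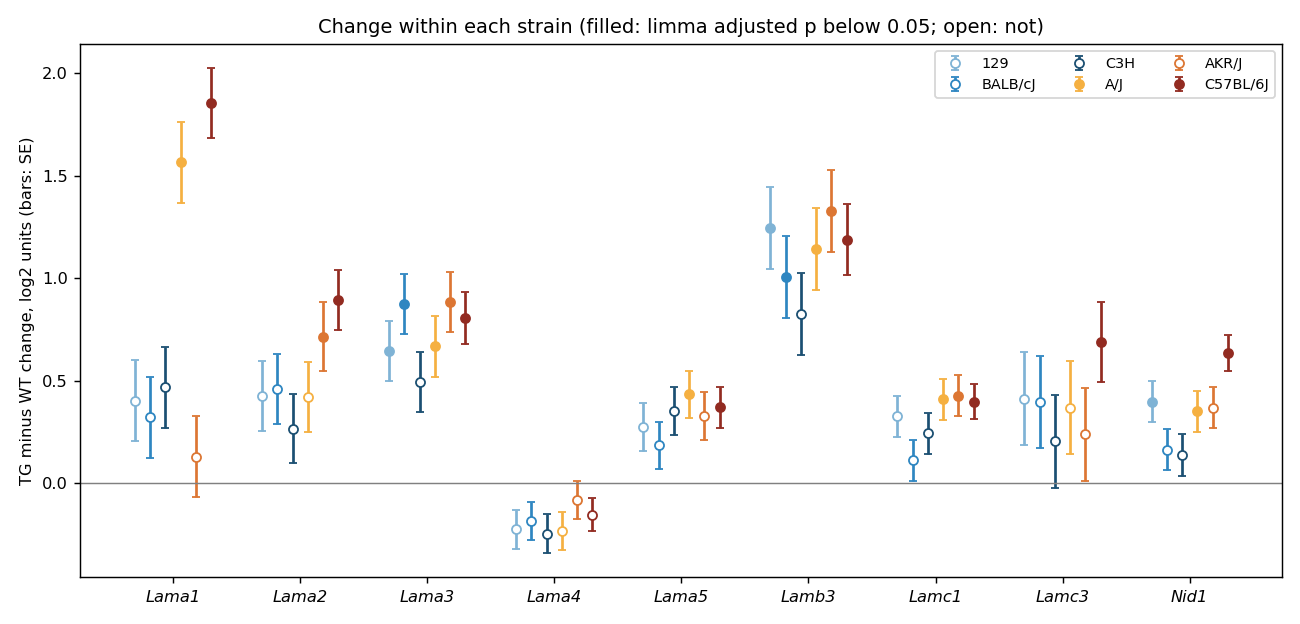
TG minus WT change within each strain in log2 units (y axis) with SE bars, by gene and coloured by strain; filled points passed the limma test. For Lama1 the points of A/J (1.57) and C57BL/6J (1.85) lie above those of the other strains (0.13 to 0.47), and for Lama4 all 6 points lie below 0.

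Whether the transgene's effect differed between strains was tested directly. Lama1 passed (F = 15.4, limma adjusted p = 0.0072) and the other 8 genes did not, against 1.34% of all genes called. Lama1 changed by 1.85 ± 0.17 in C57BL/6J and 1.57 ± 0.20 in A/J, by 0.47 ± 0.20 in C3H, 0.40 ± 0.20 in 129 and 0.32 ± 0.20 in BALB/cJ, and by 0.13 ± 0.20 in AKR/J. AKR/J, a prone strain, thus had the smallest Lama1 estimate, but its rank below BALB/cJ, 129 and C3H was not tested. Lama1 was at 7.04 to 7.85 in WT mice and in TG mice outside C57BL/6J and A/J. These values are near or below the array medians of 7.759 to 7.835, and an effect of low signal on the size of the changes was not tested. In A/J and C57BL/6J the means of some marker lists stood apart as well among TG mice, while those of other lists did not. The mean level of the transitional epithelial list was 11.51 in A/J and 11.41 in C57BL/6J against 10.75 to 10.97. That of the endothelial list was 11.62 and 11.67 against 11.85 to 12.01. That of the heart muscle list was 9.47 and 9.46 against 10.01 to 10.26. For heart muscle, however, TG mouse 1 of BALB/cJ, at 9.46, lay among the mice of A/J and C57BL/6J. The fibroblast list was at 11.07 in A/J and 10.92 in C57BL/6J, with 129 between them at 11.01, and at 10.80 to 10.90 in the remaining strains. The type 2 list was highest in A/J (12.91) and lowest in C57BL/6J (12.56). In the epithelial list 129 (10.86) and C3H (10.84) lay between A/J (11.19) and C57BL/6J (10.80). In the type 1 list 129 (11.74) lay between C57BL/6J (11.70) and A/J (11.79). Not every list is given here. The part of these cell types in the strain pattern of Lama1 was not tested. The Lama1 call of strain dependence held in all 19 refits that left out 1 mouse and could be estimated, with limma adjusted p from 0.0033 to 0.021, and over all 27 alternatives the adjusted p ran from 0.0019 to 0.021. For Lama1 a sequence difference between strains under the probes was not tested.

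Nid1 came closest among the rest (unadjusted p = 0.019, limma adjusted p = 0.23), with changes of 0.64 ± 0.09 in C57BL/6J and 0.14 ± 0.10 in C3H. The other 7 genes had limma adjusted p from 0.46 to 0.94, which does not show that their changes were equal.

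Levels among TG mice differed between strains for 6 of 9 genes (Lama1, Lama4, Lama5, Lamb3, Lamc1 and Nid1), where the F test called 31.4% of all genes. For Lama1 the order of the means was C57BL/6J (9.45 ± 0.38, SD, n = 2), A/J (8.82 ± 0.27, n = 3), C3H (7.79 ± 0.06, n = 3), 129 (7.51 ± 0.11, n = 3), AKR/J (7.38 ± 0.01, n = 3) and BALB/cJ (7.36 ± 0.02, n = 3), and of neighbours in this order only AKR/J and BALB/cJ overlapped (limma adjusted p = 2.8e-07 over the 6 strains). For Nid1, C57BL/6J (11.94 ± 0.01, SD, n = 2) and A/J (11.86 ± 0.12, n = 3) overlapped each other and lay clear of BALB/cJ (11.58 ± 0.07, n = 3), C3H (11.50 ± 0.06, n = 3), AKR/J (11.48 ± 0.12, n = 3) and 129 (11.38 ± 0.04, n = 3), which formed a chain of overlapping neighbours (limma adjusted p = 0.00015). Both Lama1 and Nid1 were highest in the TG mice of C57BL/6J and A/J. In these strains the transitional epithelial and endothelial lists stood apart as well, and the heart muscle list did so in its means only. Nid1 was, however, also highest in A/J among WT mice (11.51). The Nid1 change in A/J was 0.35 ± 0.10, against 0.36 ± 0.05 over all strains and 0.64 ± 0.09 in C57BL/6J. For Lama1 the change in A/J was 1.57 ± 0.20.

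The other strain orders were shallower. Lama5 was lowest in C3H (10.20 ± 0.07, SD, n = 3), apart from BALB/cJ above it (10.38 ± 0.02, n = 3), and all higher neighbours overlapped (limma adjusted p = 0.0075). Lamc1 was lowest in BALB/cJ (11.10 ± 0.12, SD, n = 3), apart from C3H (11.27 ± 0.02, n = 3) (limma adjusted p = 0.014, and 0.053 without TG mouse 3 of BALB/cJ). Lamb3 was highest in C57BL/6J, 11.25 in both mice, and lowest in BALB/cJ (10.59 ± 0.28, SD, n = 3) (limma adjusted p = 0.032), a call lost without TG mouse 1 or 2 of BALB/cJ or either TG mouse of C57BL/6J (adjusted p = 0.077 to 0.11). Lama4 ran without a gap from C57BL/6J (10.43) to BALB/cJ (10.14) (limma adjusted p = 0.014).

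Levels in prone and resistant TG mice were compared with equal weight per strain and without subtraction of WT levels. Lama1 (0.99 ± 0.08, limma adjusted p = 4e-06), Nid1 (0.27 ± 0.04, adjusted p = 0.00055), Lama5 (0.21 ± 0.05, adjusted p = 0.0097) and Lamc1 (0.15 ± 0.04, adjusted p = 0.027) were higher in the 8 prone than in the 9 resistant mice, 4 of 9 genes against 6.44% of all genes called higher. The sets overlapped for all 4 genes, and they did not for 0.126% of all genes. Lama1 ran from 7.37 to 9.72 in prone and from 7.34 to 7.84 in resistant mice, and Nid1 from 11.34 to 11.97 and from 11.33 to 11.63, with the AKR/J mice among the resistant ones in both cases. The Lama1 difference was 1.58 without AKR/J and 0.54 without C57BL/6J, and the Nid1 difference 0.41 without AKR/J and 0.18 ± 0.05 without C57BL/6J. With strain means as the unit, 3 strains against 3, limma called 0 of the 4 genes (adjusted p = 1) and 0 of all 13499, with p before adjustment below 0.05 for 1 of the 9 and for 518 of all genes. The Lama5 call was lost without TG mouse 1 of C57BL/6J (limma adjusted p = 0.056), and with all mice of the strain A/J (0.087) or all of C3H (0.18) left out. The Lamc1 call was lost without TG mouse 1 of 129, A/J or C3H, TG mouse 2 of AKR/J or either TG mouse of C57BL/6J (limma adjusted p = 0.051 to 0.068). It was also lost with all mice of A/J, BALB/cJ, C3H or C57BL/6J left out (0.053 to 0.27), and its difference was 0.08 without the strain BALB/cJ.

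The effect of the transgene itself, prone minus resistant, passed for 1 of the 9 genes, Lama1, at 0.79 ± 0.16 (limma adjusted p = 0.040), where 0.252% of all genes were called higher. Lama1 rose by 1.18 ± 0.11 in the prone and by 0.40 ± 0.11 in the resistant strains. The p-values of this comparison rest on the spread between mice, and strain means were not taken as the unit for it. The call was lost in 11 of 19 refits without 1 mouse (limma adjusted p = 0.018 to 0.074 over the 19): TG mouse 2 of 129, 1 of A/J, each of AKR/J, 1 and 2 of BALB/cJ, 1 and 2 of C3H, and TG mouse 1 and WT mouse 2 of C57BL/6J. It was lost with all mice of 129, A/J, BALB/cJ, C3H or C57BL/6J left out (adjusted p = 0.10 to 0.23), the difference being 0.45 without C57BL/6J, and kept without AKR/J (1.31, adjusted p = 0.0069). With the replicate number as a block the difference was 0.76 (adjusted p = 0.065). Both epithelial chains rose in both sets, where 12% (prone) and 4.92% (resistant) of all genes were called higher: Lamb3 by 1.22 ± 0.11 and 1.03 ± 0.12 and Lama3 by 0.79 ± 0.08 and 0.67 ± 0.09, and their differences of 0.19 ± 0.16 and 0.12 ± 0.12 did not pass. Nid1 (0.45 ± 0.06 and 0.23 ± 0.06), Lama2 (0.68 ± 0.09 and 0.38 ± 0.10) and Lamc1 (0.41 ± 0.06 and 0.23 ± 0.06) had differences with an unadjusted p below 0.05 that did not pass after adjustment (limma adjusted p = 0.29, 0.42 and 0.38). Lama5 rose by 0.38 ± 0.06 and 0.27 ± 0.07, and its difference of 0.11 ± 0.09 did not pass (limma adjusted p = 0.76). The lowest WT mouse for Lama5 was that of resistant C3H, at 9.84.

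Emphysema-labelled strains did not differ from the other labelled strains in any of the 9 genes at the limma threshold. The test called 7.15% of all genes. The limma p before adjustment was below 0.05 for 5 of 9, and the share of all genes below that unadjusted limit was not counted. Lamb3 came closest, lower by 0.33 ± 0.10 in AKR/J and BALB/cJ than in 129 and C3H (limma adjusted p = 0.055). It passed without TG mouse 3 of BALB/cJ (-0.41, adjusted p = 0.014) and in 3 other refits without 1 mouse, those of TG mouse 1 of 129 and TG mice 2 and 3 of A/J.

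Among mice of the same group, most of the 9 genes varied together only loosely. After each group's mean was subtracted, the median r over the 36 pairs of genes was 0.16, 11 pairs had an r below 0 and 5 had one above 0.5, and the partner chains Lama3 and Lamb3 were at 0.43. Lama2 and Lamc3 had the highest r over the 19 mice of groups with 2 or more (Pearson r = 0.93, Spearman rho = 0.91, and r = 0.92 without the 2 mice farthest from the Lama2 median). TG mouse 3 of A/J was highest in both, with Lama2 at 11.15 against 10.72 and 10.63 in its group and Lamc3 at 9.13 against 8.61 and 8.59. TG mouse 3 of BALB/cJ was likewise highest in its group, with Lama2 at 10.75 and Lamc3 at 8.99. These r values are descriptions over 36 pairs of genes measured on the same arrays.

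Fibroblast markers moved with that pair within groups (r = 0.63 for Lama2 and 0.70 for Lamc3), and smooth muscle markers as well (0.64 and 0.62). Lama3 and Lamc1 formed the next pair (r = 0.81, rho = 0.74), and both went with the epithelial marker list (r = 0.87 and 0.74). Lamb3 had r = 0.48 with the epithelial list (rho = 0.48) and its strongest value with the endothelial list (r = -0.70, rho = -0.59). Lama4 did not follow the endothelial list within groups (r = -0.15, rho = 0.0053). Lamb3 and Nid1 had the lowest r of the pairs (-0.45, rho = -0.52). The part of these cell types in the values was not tested.

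**Figure D5:**
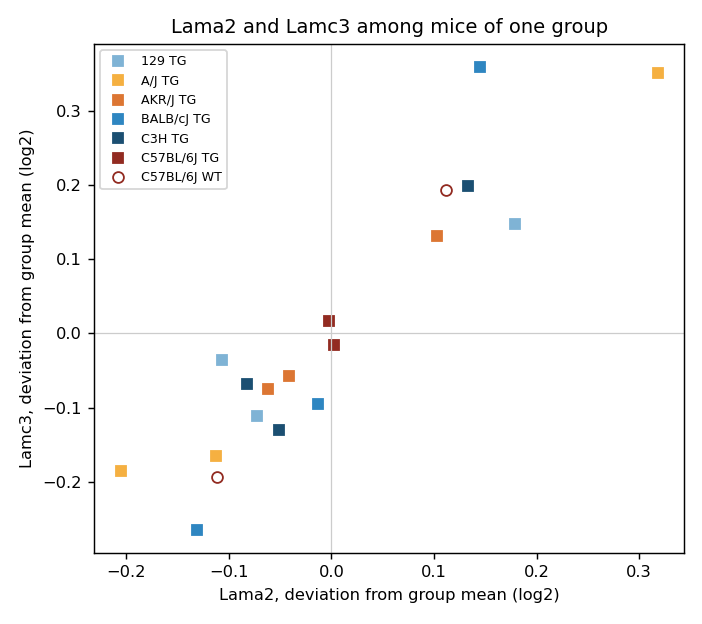
Deviation of Lama2 (x axis) and Lamc3 (y axis) from the group mean, in log2 units, for the 19 mice of groups with 2 or more mice; squares are TG and circles WT mice, coloured by strain. The points follow a rising line (r = 0.93), with TG mouse 3 of A/J at the upper right.

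For each gene the 3 genes of most similar pattern were found by Pearson r over the 24 mice after subtraction of strain means, so that all points share the genotype difference. Nearest to Lamb3 were Ggact (r = 0.97), Ppic (0.97) and Mal (0.97), and to Lama3 Plxnb2 (0.97), Ppic (0.97) and Fam234a (0.96). Ppic, which encodes a cyclophilin, was also nearest to Lamc1 (0.95), before Phlda1 (0.95) and Manba (0.94). Lama1 was nearest to Fcrls (0.96), an Fc receptor-like gene, Adamts4 (0.94), a proteoglycan-cleaving protease, and the fibrillar collagen gene Col5a2 (0.94). Lama5 was nearest to Ssh3 (0.96), Mmp14 (0.94) and Col1a1 (0.94).

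Stromal members had other neighbours. Lama2 was nearest to Cd34 (0.95), a marker of stromal and vascular progenitors, Gas7 (0.95) and Septin3 (0.94), and Nid1 to Nrcam (0.95), the matricellular gene Ccn4 (0.94) and Cd34 (0.94). The gene nearest to Lamc3 of all 13499 was Lama2 (0.91), followed by Sox9 (0.91), a regulator of cartilage and airway progenitors, and the proteoglycan gene Fmod (0.90). Lama4 was nearest to Map3k20 (0.92), Lrrn3 (0.90) and Agmo (0.90), all of which had lower values in TG lungs (-0.24, -0.65 and -0.43).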

How the data were processed

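Per the labels' protocols, lungs were homogenised fresh, RNA was purified on columns, and an Ambion kit (WT Expression) gave the biotin-marked target. The authors' deposited values were taken to be log2 because they span 3.41 to 14.75. Log base, summarisation, normalisation and build have no statement in the sources used here. Of 25285 rows, 25284 had all 24 values; 14539 probe sets had 1 gene symbol, 781 several and 9964 none, 14480 matched RefSeq by Entrez identifier, and 13499 genes remained after the probe set of highest mean was taken. Symbols come from an older platform annotation. Groups came from sample titles; labels do not say how mice were bred, so p-values measure the spread between these mice.

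TG against WT mice used limma 3.58.1 (R 4.3.3; lmFit, eBayes, two-sided) with strain plus genotype (17 residual degrees of freedom); other contrasts used 12 group means (12 degrees of freedom). Benjamini-Hochberg adjustment ran over all 13499 genes, with a threshold of 0.05. Errors are SE unless marked SD. The number of arrays limits precision. The fit was tested on simulated data. All 9 genes are named; from each list up to 4 called genes of largest change were to be named, and others were named after their values were seen. The 3 most alike genes per member were found by r. The genes, lists and tests were chosen with earlier results of these data known. Shared replicate numbers of the C57BL/6J TG and WT mice correlated at 0.06 across genes and pair no mice.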

Additional observations from a re-analysis of the deposited data

Results flagged for a closer look

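Lama1 differed between strains in its TG minus WT change by the test of that difference itself (F = 15.4, limma adjusted p = 0.0072), with 1.85 in C57BL/6J, 1.57 in A/J and 0.13 to 0.47 in the other 4 strains.

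The Lama1 change also differed between the prone and the resistant set by 0.79 (limma adjusted p = 0.040). Prone AKR/J nonetheless had the smallest estimate of all 6 strains. That p rests on the spread between mice, and strain means were not taken as the unit. The call was lost in 11 of 19 refits without 1 mouse and with the replicate block (limma adjusted p = 0.065). It was also lost with all mice of any strain other than AKR/J left out. Sequence differences between strains under the Lama1 probes were not tested.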

How the results depend on the processing

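The count of 9 called genes for TG against WT mice stayed at 9 under each scaling, filter, probe set, moderation, array weight, replicate block and left-out mouse or strain tried, and was 8 in C57BL/6J alone, without Lama4. Pairs of gene and strain called within strains were 19 with the replicate block, up to 26 with array weights, and 20 to 25 with 1 mouse left out. Strain dependence stayed at 1 gene, and strain differences among TG mice at 5 to 7. For prone against resistant TG mice the count of 4 became 2 without A/J, 2 without C3H and 0 with strain means as the unit, and 2 to 5 with 1 mouse left out; Lama2 passed in 3 of these alternatives. For the difference of the change, the count of 1 became 0 with the replicate block and 0 without 129, A/J, BALB/cJ, C3H or C57BL/6J, and 0 to 1 with 1 mouse left out. For the emphysema label the count of 0 became 1 with dim probe sets left out (Lamb3), 2 with array weights (Lamb3 and Lama4), and 0 to 1 with 1 mouse left out. Over all genes, calls of that difference moved from 64 to 14 with the replicate block, 289 with array weights, 1 to 15 without a strain other than AKR/J, 363 without AKR/J, and 8 (without TG mouse 1 of BALB/cJ) to 194 (without TG mouse 3 of A/J) with 1 mouse left out. Calls of strain dependence moved from 181 to 98 with the replicate block, 586 with array weights, and 66 (without TG mouse 1 of C57BL/6J) to 350 (without TG mouse 3 of A/J). The background shares of these tests, 0.252% and 1.34%, move with them. Prone against resistant calls moved from 1503 to 2335 without AKR/J and 965 without TG mouse 1 of C57BL/6J, and emphysema calls from 965 to 1461 with array weights. Small uncalled values changed sign: prone minus resistant Lama3 (-0.022) and Lamb3 (-0.0083) without BALB/cJ, Lama4 (-0.018) without C57BL/6J, and the difference of the Lamc3 change (-0.034) without C57BL/6J. Apart from the construction of fewer mice, the cause was not tested. Of single values under all alternatives, 3193 kept side and direction, 72 lost and 25 gained a call. With 1 WT mouse in 5 strains, a left-out WT mouse there left no value within that strain.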
